A study of Saccharomyces cerevisiae with 18 samples.

Results

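The genes described here are 9 genes of budding yeast for glutathione and for defence against superoxide and peroxide, chosen by name out of the 6212 genes of the array table: GSH1, GSH2, GLR1, GTT2, SOD1, SOD2, CTA1, CCP1 and YAP1. Their systematic names are YJL101C, YOL049W, YPL091W, YLL060C, YJR104C, YHR008C, YDR256C, YKR066C and YML007W. Spotted DNA arrays compared messenger RNA of wild-type strain BY4741, a haploid laboratory strain that lacks HIS3, LEU2, MET15 and URA3, between cells kept for 10, 20, 40, 60 or 120 min in a potassium-free medium and cells kept as long in this medium with 50 mM KCl. The potassium-free medium held about 15 µM potassium, and the series asks how expression responds to a sudden shortage of this ion. The growth notes name the potassium-free medium also for the culture before the wash, so how the cells of that arm were grown before time 0 is not settled by the labels.

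Each array carried both RNAs of a time point in different dyes. There were 18 arrays, 2 at 10 min from 1 experiment with its dye swap and 4 at every later time point from 2 independent experiments with a dye swap each. Every value is the log2 of the potassium-free signal over the KCl signal, so a positive value means more messenger RNA without potassium. That direction and the log base are likely and not stated: the direction follows how the titles order the conditions, and the base was taken from the range of the values. The ratio is relative to the other genes of its array. It would not show a shift in the total amount of messenger RNA, and levels of different genes cannot be compared. The arrays held values for 3913 to 5372 genes, and the SD over genes grew from 0.384 on the narrowest array at 20 min to 1.45 on the widest at 120 min.

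Of the 9 genes, 8 had a value on at least 1 array. GSH2, GLR1, SOD2, CCP1 and YAP1 had a value on all 18 arrays, GSH1 and SOD1 on 17 (replicate 2 of 60 min had none) and CTA1 on 12. GTT2, which encodes a glutathione S-transferase, had no value on any of the 18 arrays, so it is not described further.

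Glutathione is a small thiol made from glutamate, cysteine and glycine. Gsh1 joins glutamate to cysteine, the rate-limiting step, and Gsh2 adds glycine. Glutathione is oxidised when it reduces peroxides and other compounds, and Glr1, glutathione reductase, restores it with NADPH. Superoxide, a by-product of respiration, is turned into hydrogen peroxide by Sod1, the copper and zinc enzyme of the cytosol and the space between the mitochondrial membranes, and by Sod2, the manganese enzyme of the mitochondrial matrix. Hydrogen peroxide is then removed by catalases, of which Cta1 is the peroxisomal and mitochondrial one and Ctt1 the cytosolic one, and by peroxidases such as Ccp1, the mitochondrial cytochrome c peroxidase. Yap1 is the transcription factor that enters the nucleus on oxidation and drives many of these genes, GSH1 among them.

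GSH1 and SOD2 were higher in potassium-free than in KCl cells from 40 or 60 min on, by 2.36-fold to 2.83-fold wherever they passed the test. SOD1 passed at 60 min only, GSH2 was lower at 120 min and CTA1 was lower at 40 min. GLR1, CCP1 and YAP1 passed at no time point. Means are given with the standard error (SE) of the limma fit, which uses a spread between experiments pooled over the time points. A gene was called when its limma adjusted p, taken over all genes tested at that time, was under 0.05.

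**Figure D1:**
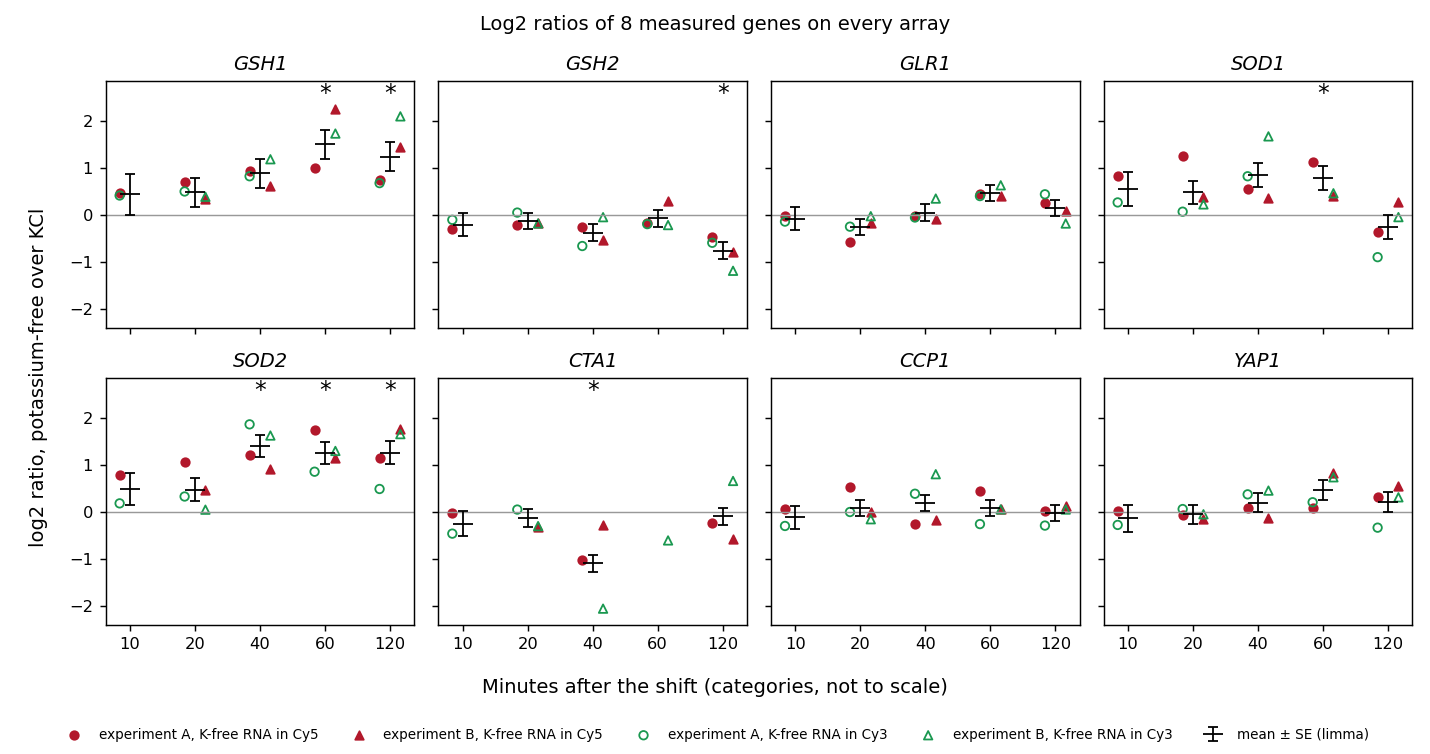
Log2 ratio, potassium-free over KCl (vertical axis), against minutes after the shift (horizontal axis, categories not to scale) for the 8 measured genes. Filled symbols are arrays with potassium-free RNA in Cy5 and open symbols arrays with it in Cy3, circles are experiment A and triangles experiment B, the black bar is the limma mean ± SE and an asterisk marks an adjusted p under 0.05. GSH1 and SOD2 lie above 0 on every array that measured them, whereas the CCP1 arrays fall on both sides of 0 at every time point.

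At 10 and 20 min none of the 8 measured genes was called. The background was 0% of 4821 genes tested at 10 min, with 135 genes and none of the 8 at an unadjusted p under 0.05, and 0.482% of 4361 at 20 min (0.459% higher and 0.0229% lower), with 272 genes and again none of the 8 at that unadjusted level. At 40 min 2 of 8 were called, SOD2 higher and CTA1 lower, against 8.93% of 4703 genes (5.23% higher and 3.7% lower). At 60 min 3 of the 7 tested genes were called, all higher, against 46.8% of 4127 genes called in either direction with 21.7% called higher and 25.1% lower. At 120 min 3 of 8 were called, 2 higher and 1 lower, against 42.3% of 4410 genes (20.4% higher and 22% lower). With the 120 min arrays fitted alone none of the 3 was called (limma adjusted p = 0.0656 for SOD2, 0.0782 for GSH1 and 0.105 for GSH2). The shares of called genes at 60 and 120 min were thus close to those of the whole array. The median of the genes' mean log2 ratios was -0.10, 0.02, 0.19, 0.47 and 0.06 at 10, 20, 40, 60 and 120 min, beside -0.01, 0.01, 0.01, -0.09 and 0 over all genes tested.

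The p-values and the SE rest on the spread between the 2 experiments of a time point, pooled over the later time points and moderated by limma. The lone experiment of 10 min was given this spread. The labels do not say which arrays form a dye-swap pair; replicates 1 and 2 were taken as experiment A and replicates 3 and 4 as experiment B.

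**Figure D2:**
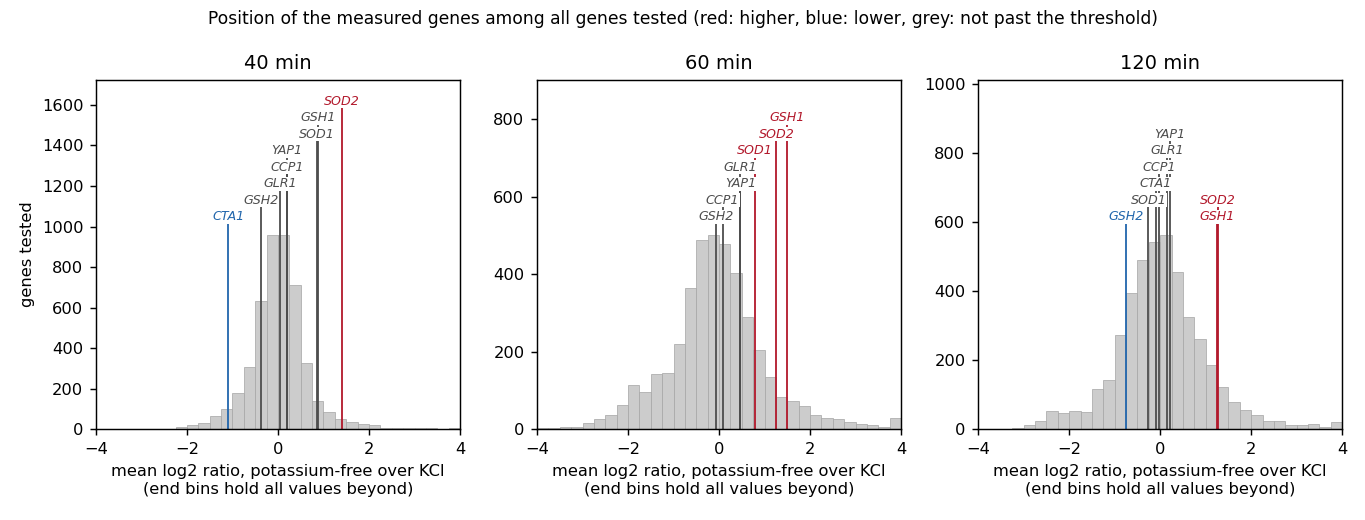
Number of genes tested (vertical axis) by mean log2 ratio, potassium-free over KCl (horizontal axis), at 40, 60 and 120 min, with a vertical line at the mean of each measured gene of the set, red where called higher, blue where called lower and grey otherwise. SOD2 at 40 min and GSH1 at 60 min lie in the upper tail of the array, and GLR1, CCP1 and YAP1 lie near its centre at 40 and 120 min.

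GSH1 was above 0 on all 17 arrays with a value. Its log2 ratios were 0.41 and 0.47 at 10 min. At 20 min they were 0.70, 0.50, 0.39 and 0.34 in replicates 1 to 4, and at 40 min 0.93, 0.82, 1.19 and 0.62. All 4 values at 20 min lay at or below 0.70, so only replicate 4 of 40 min fell within their range. At 60 min GSH1 stood at 1.00, 1.73 and 2.26 in replicates 1, 3 and 4, and at 120 min at 0.68, 0.74, 1.45 and 2.10. Both arrays of experiment B were higher than every array of experiment A at 60 and at 120 min.

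The mean of GSH1 was 0.44 ± 0.43 at 10 min, 0.48 ± 0.31 at 20 min and 0.89 ± 0.31 at 40 min, none of them called (limma adjusted p = 1, 0.925 and 0.112). The 40 min value was called in 7 of 20 alternatives, among them the other pairing of the arrays (limma adjusted p = 0.0215), a dye term (0.00673) and a random block for the experiment (0.0125). The 20 min value was called in 2 of 20, the same spread on every array (0.82, limma adjusted p = 0.0413) and quantile normalization (0.94, limma adjusted p = 0.0267). At 60 min it was 1.50 ± 0.31, 2.83-fold (limma adjusted p = 0.00605), with 301 of 4127 genes higher. At 120 min it was 1.24 ± 0.31, 2.36-fold (limma adjusted p = 0.0171), with 419 of 4410 genes higher. The experiments differed in size: 1.00 in A and 2.00 in B at 60 min, and 0.71 in A and 1.77 in B at 120 min. The arrays of B were also wider over all genes. Their SD was 1.30 and 1.28 at 60 min, against 1.06 and 1.15 in A, and 1.27 and 1.45 at 120 min, against 0.92 and 0.84. Without experiment B the 120 min value was 0.71 and not called. At 60 min GSH1 stayed called in all 18 alternatives that tested it. It was not tested there without experiment B or with a value required on every array, because replicate 2 had no value. The increase of 0.76 between 20 and 120 min was itself not called (limma adjusted p = 0.251).

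GSH2 did not follow GSH1. The arrays gave log2 ratios of -0.10 and -0.31 at 10 min and -0.21, 0.05, -0.18 and -0.17 at 20 min. They were -0.25, -0.66, -0.05 and -0.54 at 40 min and -0.17, -0.20, -0.22 and 0.30 at 60 min. At 120 min all 4 arrays were clearly negative, at -0.59, -0.47, -0.78 and -1.19, below every array of 10, 20 and 60 min and overlapping those of 40 min. The mean at 120 min was -0.76 ± 0.18, so the messenger RNA was 1.69-fold higher in KCl cells (limma adjusted p = 0.0139), and 761 of 4410 genes were lower. It was -0.53 and not called without experiment B (limma adjusted p = 0.158). The means of -0.21, -0.13, -0.38 and -0.07 at the earlier times were not called, and the step of -0.69 from 60 to 120 min was not either (limma adjusted p = 0.209).

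The enzymes of the first and second step of glutathione synthesis therefore differed in their ratios. In each of the 8 experiments at 20 to 120 min GSH1 exceeded GSH2. The difference was 0.68 in A and 0.54 in B at 20 min, 1.34 and 1.20 at 40 min, 1.19 and 1.96 at 60 min, and 1.24 and 2.76 at 120 min. Its mean was 1.36 (SD 0.709, n = 8), and an exact two-sided sign-flip permutation test gave p = 0.0078125, the smallest that 8 values allow, or 0.0234 adjusted over the 3 pairs of genes that could be compared. Time points of an experiment may share a culture, in which case these 8 values are not independent.

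GLR1 changed sign over time on the arrays and was called at no time. On the log2 scale it stood at -0.14 and -0.01 at 10 min and -0.57, -0.25, -0.03 and -0.17 at 20 min. At 40 min they were -0.01, -0.06, 0.35 and -0.09, at 60 min 0.44, 0.40, 0.63 and 0.41, and at 120 min 0.44, 0.24, 0.09 and -0.18. All 4 arrays were below 0 at 20 min and all 4 above 0 at 60 min, with no overlap between these times, and the arrays of 120 min lay between and partly within both. The mean of 0.47 ± 0.18 at 60 min had an unadjusted p of 0.0299 and a limma adjusted p of 0.0601. It was called in 7 of 20 alternatives, 1 of them the threshold of 0.1. Among the others were centring each array on its median (limma adjusted p = 0.0484) and the other pairing of the arrays (limma adjusted p = 0.016).

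SOD2 was above 0 on all 18 arrays. It gave log2 ratios of 0.18 and 0.79 at 10 min and 1.06, 0.33, 0.05 and 0.46 at 20 min. At 40 min they were 1.21, 1.86, 1.62 and 0.92, of which only the last lay within the range of the 20 min arrays. At 60 min they were 1.73, 0.85, 1.30 and 1.15, and at 120 min 0.49, 1.15, 1.76 and 1.66. The arrays of 40, 60 and 120 min overlapped throughout.

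The mean of SOD2 was 0.49 ± 0.34 at 10 min and 0.47 ± 0.24 at 20 min, not called (limma adjusted p = 1 and 0.891). It rose to 1.40 ± 0.24 at 40 min, 2.65-fold over KCl cells (limma adjusted p = 0.0186), with 131 of 4703 genes higher. It was 1.26 ± 0.24 or 2.39-fold at 60 min (limma adjusted p = 0.00446) and 1.26 ± 0.24 or 2.40-fold at 120 min (limma adjusted p = 0.00609). At 40 min the call was lost without experiment A (1.27, limma adjusted p = 0.222) and without experiment B (1.54, limma adjusted p = 0.124). Without experiment B the 120 min mean was 0.82 (limma adjusted p = 0.0758), and at 60 min the call was kept in every alternative run at the 0.05 threshold.

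SOD1 was above 0 on every array with a value up to 60 min and on 1 of 4 at 120 min. Its log2 ratios were 0.27 and 0.84 at 10 min, 1.25, 0.07, 0.22 and 0.38 at 20 min, and 0.55, 0.82, 1.67 and 0.35 at 40 min. At 60 min replicates 1, 3 and 4 gave 1.14, 0.46 and 0.41, and at 120 min the 4 arrays gave -0.90, -0.36, 0.27 and -0.05. All 4 arrays of 120 min were below those of 40 and 60 min. The mean was 0.85 ± 0.25 at 40 min (limma adjusted p = 0.0792), 0.78 ± 0.25 or 1.72-fold at 60 min (limma adjusted p = 0.0365) and -0.26 ± 0.25 at 120 min (limma adjusted p = 0.432).

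The SOD1 call at 60 min rested on replicate 1, the only array of experiment A there. Without it the mean was 0.43 and not called (limma adjusted p = 0.330), and the call was lost in 8 of 18 alternatives in all. Among them were the same spread on every array (0.52, limma adjusted p = 0.0854), quantile normalization (0.56, limma adjusted p = 0.112), a random block for the experiment (0.70, limma adjusted p = 0.0681), a dye term (0.64, limma adjusted p = 0.0602) and the time point alone (limma adjusted p = 0.0889). The uncalled SOD1 value at 40 min was called in 8 of 20 alternatives, with the other pairing of the arrays among them (limma adjusted p = 0.0149). The step of -1.04 ± 0.36 from 60 to 120 min was not called (limma adjusted p = 0.207).

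The difference between the superoxide dismutases varied between time points, and its change over time was not tested. SOD1 minus SOD2 was -0.03 in A and 0.05 in B at 20 min, -0.85 and -0.26 at 40 min, -0.16 and -0.79 at 60 min, and -1.45 and -1.59 at 120 min. SOD1 had the larger ratio in 1 of these 8 experiments, and the largest differences belonged to 120 min in both experiments. At 10 min, which did not enter the test, SOD1 exceeded SOD2 by 0.065. The mean was -0.64 (SD 0.637, n = 8; exact sign-flip permutation test, two-sided p = 0.0234, adjusted p = 0.0234). Without replicate 4 of 40 min it was -0.60 with an adjusted p of 0.0547 in the same exact permutation test. The mean pools time points whose differences were unlike, and if those of an experiment share a culture, the 8 values are not independent.

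CTA1 was measured on few arrays. Its log2 ratios were -0.46 and -0.03 at 10 min and 0.05, -0.30 and -0.32 in replicates 2, 3 and 4 of 20 min. At 40 min replicates 1, 3 and 4 gave -1.01, -2.06 and -0.28, at 60 min replicate 3 alone gave -0.61, and at 120 min replicates 2, 3 and 4 gave -0.24, -0.57 and 0.66. The arrays of 40 min spanned a wide range, and replicate 4 overlapped those of 10, 20 and 120 min. The mean at 40 min was -1.09 ± 0.18, 2.13-fold higher in KCl cells (limma adjusted p = 0.0235), with 201 of 4703 genes lower, and at 120 min it was -0.10 (limma adjusted p = 0.686). At 60 min the gene was not tested.

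The call on CTA1 did not hold without replicate 3 (-0.65, limma adjusted p = 0.136), without replicate 1 (-1.17, limma adjusted p = 0.0726) in the other pairing of the arrays (-0.91, limma adjusted p = 0.0765) or with a random block for the experiment (-1.11, limma adjusted p = 0.0511). The SE of the fit is smaller than the spread of the 3 arrays. It rests on experiment values pooled over the time points, so the gap between replicates 3 and 4 of experiment B did not enter it. The experiment values at 40 min were alike, at -1.01 in A (replicate 1 alone) and -1.17 in B.

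CTT1, the cytosolic catalase, went the other way. It had log2 ratios of 1.20 and 1.07 at 10 min, 1.13, 0.64, -0.41 and 0.03 at 20 min, and 2.13, 2.86, 2.28 and 1.11 at 40 min. All 8 arrays of 60 and 120 min lay between 2.10 and 3.66, with means of 3.10 ± 0.29 (limma adjusted p = 0.000534) and 2.51 ± 0.29 (limma adjusted p = 0.00146). In the 7 experiments at 20 to 120 min with both genes CTA1 was below CTT1, and so it was in the 10 min experiment, by -1.39, which did not enter the test. The mean difference was -2.30 (SD 1.32, n = 7), and the exact two-sided sign-flip permutation test gave p = 0.0156, the smallest that 7 values allow, or 0.0234 adjusted over the 3 pairs. Here too the 7 values are not independent if time points of an experiment share a culture. At 20 min the difference was -0.84 in A and -0.12 in B, and at 40 min -3.51 and -2.87.

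**Figure D3:**
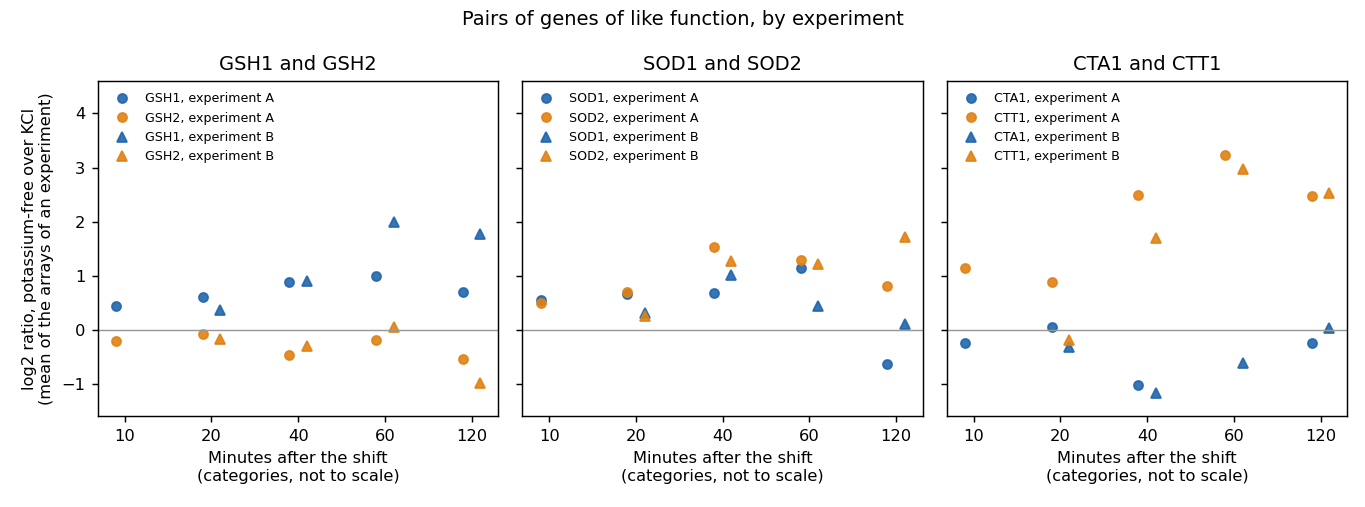
Log2 ratio, potassium-free over KCl, averaged over the arrays of an experiment (vertical axis), against minutes after the shift (horizontal axis, categories not to scale) for GSH1 and GSH2, SOD1 and SOD2, and CTA1 and CTT1. Blue is the first and orange the second gene of a pair, circles are experiment A and triangles experiment B. GSH1 lies above GSH2 throughout, SOD1 and SOD2 part at 120 min, and CTA1 lies below CTT1 throughout.

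CCP1 stayed near 0. Its log2 ratios were -0.30 and 0.06 at 10 min, 0.54, 0.00, -0.16 and -0.01 at 20 min, and -0.26, 0.39, 0.80 and -0.17 at 40 min. At 60 min they were 0.45, -0.26, 0.05 and 0.07, and at 120 min -0.29, 0.01, 0.12 and 0.05. The arrays of all 5 times overlapped, and the means from -0.12 to 0.19 were called at no time.

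YAP1 had small ratios too. They were -0.28 and 0.01 at 10 min, -0.07, 0.06, -0.05 and -0.15 at 20 min, and 0.09, 0.37, 0.45 and -0.14 at 40 min. At 60 min they were 0.09, 0.20, 0.74 and 0.83, with both arrays of experiment B above those of A, and at 120 min -0.34, 0.32, 0.54 and 0.31. The 60 min arrays were all above those of 10 and 20 min and overlapped those of 40 and 120 min. The mean at 60 min, 0.47 ± 0.20, had an unadjusted p of 0.0544 and a limma adjusted p of 0.0979. The limma adjusted p fell to 0.0499 after median centring and to 0.0131 in the other pairing. In all, 6 of 20 alternatives called the value, 1 of them the threshold of 0.1. Yap1 is controlled largely by its place in the cell, which these arrays do not measure.

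No gene of the set was called in a comparison between neighbouring time points, where the background was 0% of all genes in each of the 3 steps. Between 20 and 120 min 0 were called, against 15.8% of 3978 genes (5.46% higher and 10.4% lower), and in a moderated F test over 20, 40, 60 and 120 min 0 of the 7 genes tested were called, against 14.1% of 3714 genes. The lowest adjusted p-values of the F test were those of SOD1 (limma adjusted p = 0.145) and SOD2 (limma adjusted p = 0.196). The order of the time points within a gene is thus not separated by these tests.

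How far GSH1 and SOD2 climbed over time also depended on the scale of the arrays, since all ratios spread more widely at the late times. As deposited, GSH1 ran 0.48, 0.89, 1.50 and 1.24 at 20, 40, 60 and 120 min. With every array scaled to the same median absolute ratio it ran 0.82, 0.87, 0.98 and 0.80. SOD2 ran 0.73, 1.38, 0.80 and 0.85 on that scale, against 0.47, 1.40, 1.26 and 1.26 as deposited. Both remained above 0 at all times, and the time course was nearly flat for GSH1 and peaked at 40 min for SOD2.

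Among 3639 genes measured at all times, those whose 9 experiment values lay nearest to GSH1, GSH2, SOD1 and SOD2 were found by the root mean square (RMS) difference. CTA1 was called too but was not tested at all 5 times, so it was not compared. Nearest to GSH1 were QCR8, a subunit of respiratory complex III (0.223), and GFD1 (0.235), against a median over all genes of 1.18. Nearest to SOD2 were YBR287W (0.212) and MHO1 (0.272), against a median of 1.21. Nearest to SOD1 was TSA1, the main cytosolic peroxiredoxin (0.250), followed by GPC1, an acyltransferase of phospholipid turnover (0.287), against 0.864. TSA1 had means of 0.55, 0.58, 0.85, 0.47 and 0.09 at the 5 times beside 0.55, 0.48, 0.85, 0.78 and -0.26 for SOD1. Nearest to GSH2 were FOL1, an enzyme of folate synthesis (0.149), and NAT1, a subunit of an N-terminal acetyltransferase (0.154), against 0.646. These are descriptions over 9 experiments on shared arrays.

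Genes around these enzymes were read from 6 lists of the pathway, with 93 genes in all. At 10 min no listed gene was called. The lists were chosen with earlier results of these data known, so nothing is called particular to them. Their counts are set beside the share of all genes tested. They also depended on the scale of the arrays. With every array at the same median absolute ratio, more genes of all 6 lists were called higher at 20 min. They were 4 in place of 1 for cysteine, and 4 in place of 0 for thioredoxin and glutaredoxin. The superoxide and Yap1 lists had 3 each in place of 0. Glutathione use had 2 in place of 0 and the peroxisomal list 2 in place of 1. At 10 min 1 gene each of the glutathione and the peroxisomal list was called higher. Over all genes 154 in place of 20 were called higher at 20 min, and 33 in place of 0 at 10 min. On that scale fewer genes of all 6 lists were called higher at 60 min. The counts were 4 in place of 6 for glutathione use and 4 in place of 7 for thioredoxin and glutaredoxin. They were 2 in place of 4 for Yap1 and 2 in place of 5 for the peroxisomal list. For cysteine 4 in place of 5 were called higher, and for superoxide 5 in place of 6. Over all genes the number called higher at 60 min fell likewise, to 511 in place of 895.

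In the list of glutathione use, transport and breakdown, 3 of 17 measured genes were higher and 0 lower at 40 min, 6 higher and 2 lower of 15 at 60 min, and 7 higher and 1 lower of 17 at 120 min. Of all genes tested, 5.23%, 21.7% and 20.4% were called higher at those times, and 3.7%, 25.1% and 22% lower. The median of the list was 0.38, 0.55 and 0.42, beside 0.01, -0.09 and 0 over all genes. GLO1, the glyoxalase that uses glutathione to detoxify methylglyoxal, rose to 2.26 ± 0.16 at 60 min (limma adjusted p = 0.000309). ECM4, an omega-class glutathione transferase, stood at 2.07 ± 0.21 at 120 min (limma adjusted p = 0.00107), and GPX1, a glutathione peroxidase, at 3.10 ± 0.35 (limma adjusted p = 0.00241). GLO4, a mitochondrial glyoxalase, was lower, at -1.49 ± 0.22 at 120 min (limma adjusted p = 0.00222). GTT1, the transferase paired with the unmeasured GTT2, was higher at 120 min only, at 1.10 ± 0.21 (limma adjusted p = 0.0061), and its values there were 0.62, 1.09, 1.12 and 1.56.

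The list of cysteine supply had medians of 0.63, 0.84, 1.81 and 1.88 at 20, 40, 60 and 120 min. Of its measured genes 1 of 6 was higher at 20 min, 3 of 7 at 40 min, 5 of 6 at 60 min and 4 of 6 at 120 min, and none was lower. The shares of all genes called higher were 0.459%, 5.23%, 21.7% and 20.4% at these times. MET15, deleted in this strain and listed under its other name MET17, was tested at 10 min only. The list also holds STR2 and STR3, whose enzymes lead from cysteine to homocysteine and so use cysteine. They are in these counts, STR3 at 20, 40, 60 and 120 min and STR2 at 60 min. STR3, cystathionine beta-lyase, was already at 3.89 ± 0.25 at 20 min (limma adjusted p = 0.00222) and reached 4.89 ± 0.25 at 60 min (limma adjusted p = 5.27e-05). YCT1, a cysteine transporter, stood at 3.41 ± 0.22 at 120 min (limma adjusted p = 0.000409). CYS3, which makes the cysteine that Gsh1 uses, was higher at 40, 60 and 120 min, with 1.76 ± 0.18 at 120 min (limma adjusted p = 0.00119). MET2, homoserine acetyltransferase, was higher at the same times, with 2.00 ± 0.18 at 120 min (limma adjusted p = 0.00096). CYS3 and GSH1 thus both stood above 0 on every array that measured them.

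In the list of other superoxide and peroxide defence, 4 of 9 genes were higher at 40 min, 6 higher and 1 lower of 9 at 60 min, and 5 of 9 higher at 120 min, with medians of 0.91, 1.86 and 1.20. Over all genes tested, 5.23%, 21.7% and 20.4% were higher at these times, and 3.7%, 25.1% and 22% lower. Besides CTT1, the mitochondrial peroxiredoxin PRX1 stood at 2.22 ± 0.26 at 120 min (limma adjusted p = 0.00154). The methionine sulfoxide reductase MXR1 stood at 2.75 ± 0.23 at 60 min (limma adjusted p = 0.000475), and CYC7, the minor form of cytochrome c, at 2.00 ± 0.40 (limma adjusted p = 0.00523). SMF2, a manganese transporter, was the one gene that was lower, at -0.78 ± 0.21 at 60 min (limma adjusted p = 0.02), and not called without replicate 2 (limma adjusted p = 0.0707). It was named after its value was seen.

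In the thioredoxin and glutaredoxin list 7 of 18 genes were higher at 40 min, 7 higher and 2 lower of 18 at 60 min, and 7 higher and 1 lower of 19 at 120 min. The background at these times was 5.23%, 21.7% and 20.4% of all genes higher, and 3.7%, 25.1% and 22% lower. TSA2, the stress-inducible peroxiredoxin, stood at 3.05 ± 0.24 at 120 min (limma adjusted p = 0.000409), and the mitochondrial thioredoxin TRX3 at 2.02 ± 0.31 (limma adjusted p = 0.00291). TRX1, a cytosolic thioredoxin, was lower, at -1.77 ± 0.30 at 120 min (limma adjusted p = 0.00394).

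Among 25 partners and targets of Yap1, a list that overlaps the others and holds CCP1, 4 of 21 genes were higher at 40 min, 4 higher and 2 lower of 21 at 60 min, and 3 of 22 higher at 120 min. Of all genes, 5.23%, 21.7% and 20.4% were higher at these times and 3.7%, 25.1% and 22% lower. The counts at 60 and 120 min were thus not above those shares. The median of the list was 0.34, 0.32 and 0.08, beside 0.01, -0.09 and 0 over all genes. ZWF1, which makes the NADPH that Glr1 uses, stood at 2.01 ± 0.21 at 120 min (limma adjusted p = 0.0011). YBP1, which Yap1 needs for its oxidation in many strains, stood at 1.08 ± 0.27 at 60 min (limma adjusted p = 0.0135). GPX2, a glutathione peroxidase, was lower at 60 min, at -0.86 ± 0.20 (limma adjusted p = 0.0108). AAD14, an aryl-alcohol dehydrogenase-like gene, was higher at 120 min, at 0.97 ± 0.26 (limma adjusted p = 0.0241), but stood at 0.52 and was not called without replicate 4 (limma adjusted p = 0.158).

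Of the list of peroxisomal fatty acid oxidation and its regulators, 1 of 11 genes was higher at 20 min. It had 1 of 12 higher at 40 min, 5 of 9 at 60 min and 5 of 11 at 120 min, and none lower. The shares higher over all genes were 0.459%, 5.23%, 21.7% and 20.4%. Called at 60 min were CIT2, ADR1, POT1, PIP2 and IDP3, and at 120 min CIT2, ADR1, PIP2, OAF1 and SPS19. POX1, with a value on 6 arrays, and FOX2 were called at no time. POT1 lost its call in 8 of 18 alternatives and SPS19 in 12 of 20. CIT2, the peroxisomal citrate synthase, was the gene called at 20 min, at 3.66 ± 0.26 (limma adjusted p = 0.00222), and it stood at 5.61 ± 0.26 at 60 min (limma adjusted p = 3.87e-05). The regulator ADR1, an activator of CTA1 transcription, stood at 2.64 ± 0.51 at 60 min (limma adjusted p = 0.00497) and 2.03 ± 0.51 at 120 min (limma adjusted p = 0.0185). At 120 min ADR1 was at 1.06 in experiment A and 3.00 in B, and its call was lost in 3 of 20 alternatives. The regulators OAF1 and PIP2 were higher at 120 min, at 1.05 ± 0.16 (limma adjusted p = 0.00371) and 1.06 ± 0.22 (limma adjusted p = 0.00898). CTA1 itself was -0.10 at 120 min.

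**Figure D4:**
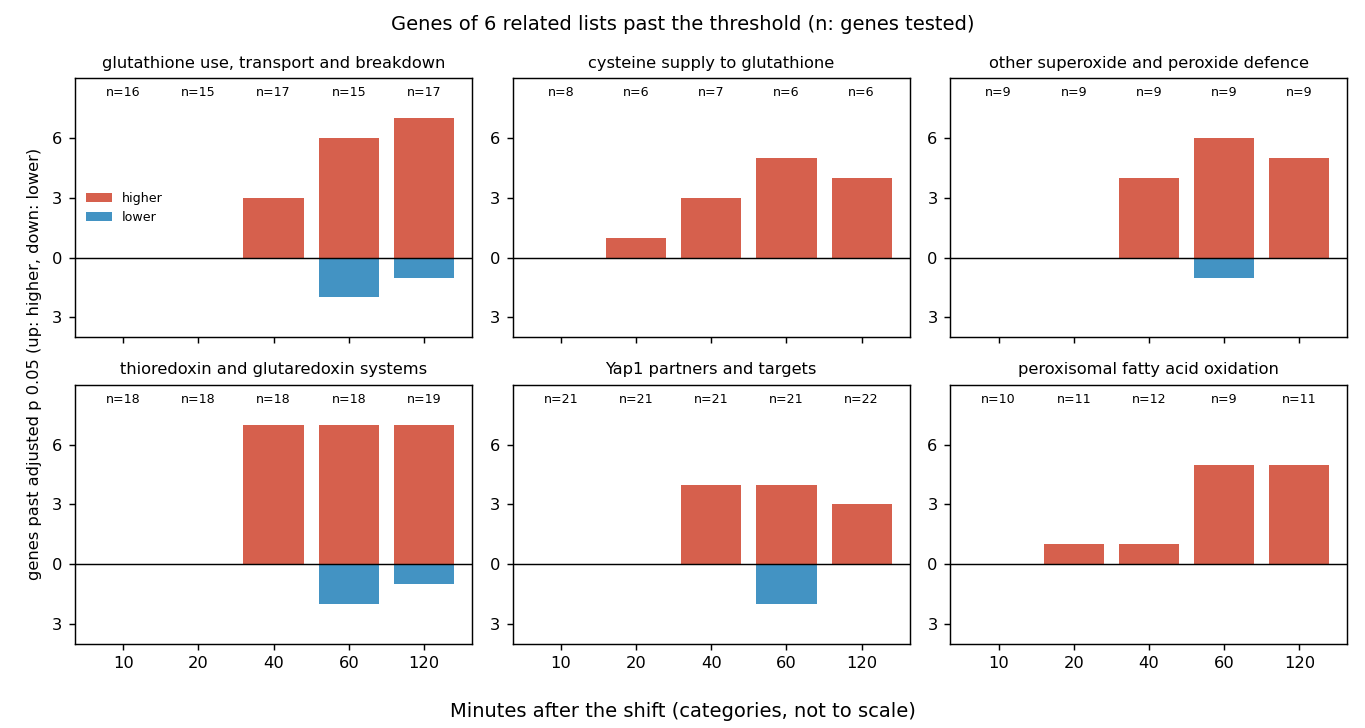
Number of genes with an adjusted p under 0.05 (vertical axis, higher in red upwards and lower in blue downwards) at each time point (horizontal axis, minutes, categories not to scale) for 6 lists of related genes, with n the genes tested. No list has a called gene at 10 min, and the cysteine list and the peroxisomal list have 1 each at 20 min.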

How the data were processed

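RNA (8 µg) of cells grown at 28 °C to an absorbance of 0.6 was labelled with Cy3 and Cy5, and spots under 120 µm or under 100 intensity units were left out, per the labels. The deposited values are log2 ratios per gene and array made by the authors; how they were normalized is not given in the sources used here. Between arrays the lowest correlation across genes, also between arrays of opposite dyes, was 0.0416, so no array ran clearly against the others; a common orientation was assumed. The labels give Cy5 for both channels of 1 of the 10 min arrays; the title was used instead.

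Values were used as deposited. Dye-swap pairs were averaged to 9 experiments and fitted with limma 3.58.1 in R 4.3.3, with 1 mean for each time and 1 spread shared by all (prior degrees of freedom 3.49, residual 4). A gene was tested with values on at least 3 of 4 arrays, or on both at 10 min. Tests are two-sided moderated tests against 0 with Benjamini-Hochberg adjustment over all genes tested. Alternatives were the other pairing of arrays (1 with 3, 2 with 4), other replicate units, a dye term, a replicate block, 3 scalings, other filters and thresholds, time points alone, and leaving out arrays or experiments. Pairs of genes were compared by exact sign-flip tests. The procedure was tested on simulated data. The genes, lists, alternatives and the rule for naming genes (all 9, CTT1, GTT1, up to 4 called genes with the largest means per list, and the 2 nearest genes) were chosen with earlier results of these data known. Of 101 symbols, 100 matched RefSeq assembly R64; no positions or sequences are given, since no build is named for the arrays.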

Additional observations from a re-analysis of the deposited data

Results flagged for a closer look

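GSH2 had an array that stood apart from the others of its time point at 20 min (replicate 2, 0.05, with the others from -0.21 to -0.17) and at 60 min (replicate 4, 0.301, with the others from -0.22 to -0.17). GLR1 had one at 60 min (replicate 3, 0.631, with the others from 0.40 to 0.44). Each lay further from its nearest neighbour than Dixon's critical value for 4 arrays allows: the gap was 0.861, 0.919 and 0.843 of the range of its group. These are 3 of 26 groups examined, and chance flags about 1 in 20. None of them touches a called value.

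GLR1 was below 0 on all 4 arrays at 20 min and above 0 on all 4 at 60 min, a difference of 0.7225 between the means. That difference was not tested by itself, and the F test over 20 to 120 min gave a limma adjusted p of 0.219 for GLR1.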

How the results depend on the processing

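Of 730 alternative values for 39 gene and time point values, 654 kept direction and side of the threshold, 25 lost the call, 33 gained one and 18 changed sign, and 0 of these 18 had a call on either side. The number of the set called at 20 min was 2 with arrays scaled to the same median absolute value and 3 after quantile normalization. At 40 min it was 4 with arrays as replicates, with a dye term, with the same median absolute value, after quantile normalization or with the time point alone, 1 with a value required on every array, 0 at a threshold of 0.01, 1 to 2 without 1 array and 0 without either experiment. At 60 min it was 5 in the other pairing, with arrays as replicates, after median centring or at a threshold of 0.1, 1 with a value required on every array, 2 to 4 without 1 array and 1 to 2 without 1 experiment. At 120 min it was 1 at 0.01, 0 with the time point alone, 3 without any 1 array and 0 to 3 without 1 experiment. With a value required on every array, CTA1 at 40 min and GSH1 and SOD1 at 60 min were not tested. Without experiment B of the time point they were not tested either, so the lower counts there include genes that left the test. Between 60 and 120 min 1 gene was called with arrays as replicates and 1 with a dye term. Between 20 and 120 min the other pairing gave 2, arrays as replicates 2, a dye term 1, and leaving out an experiment 0 to 1. The F test called 3 in the other pairing, 4 with arrays as replicates and 3 with a dye term. SOD1 minus SOD2 ran from -0.70 to -0.60 without 1 array and from -0.73 to -0.50 without 1 experiment.

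Some uncalled values changed sign when 1 array was left out. For CCP1 the values ran from -0.30 to 0.062 (10 min), from -0.04 to 0.23 (20 min), from -0.050 to 0.43 (40 min), from -0.10 to 0.26 (60 min) and from -0.10 to 0.05 (120 min). YAP1 ran from -0.28 to 0.012 (10 min), GLR1 from -0.062 to 0.16 (40 min), GSH2 from -0.20 to 0.058 (60 min) and CTA1 from -0.41 to 0.21 (120 min). Without 1 experiment CCP1 ran from -0.085 to 0.27 (20 min) and from -0.14 to 0.084 (120 min), GLR1 from -0.03 to 0.13 (40 min) and from -0.047 to 0.34 (120 min), GSH2 from -0.19 to 0.04 (60 min), SOD1 from -0.63 to 0.11 and YAP1 from -0.0065 to 0.43 (120 min), and CTA1 reached 0.04 (120 min).

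Over all genes, 420 at 40 min became 1244 in the other pairing, 1340 with arrays as replicates, 936 with a random block, 1280 with a dye term, 743 with the same median absolute value, 829 after quantile normalization, 811 at 0.1, 46 at 0.01 and 996 alone; without replicate 3 there were 278, and without an experiment 19 and 39. The 21 at 20 min (20 higher, 1 lower) became 88, 113, 68, 94, 296 (154 higher, 142 lower) and 376 (186 higher, 190 lower) in the same order, 7 at 0.01, 65 alone, and 1 and 3 without an experiment. The 0 at 10 min became 4, 39, 7, 22, 57 and 115. The 1932 at 60 min became 1199 and 1145 under the last 2 scalings, 1234 at 0.01 and 968 without experiment B, and the 1867 at 120 min became 1088, 1098, 816, 646 alone and 565. The cause was not tested.

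A replicate block left the calls at 0, 0, 2, 3 and 3 and changed none of them. The experiment as a random block lost CTA1 at 40 min and SOD1 at 60 min (limma adjusted p = 0.0511 and 0.0681) and gained GSH1 and SOD1 at 40 min (0.0125 and 0.0423) and GLR1 and YAP1 at 60 min (0.0131 and 0.0397). Deviations of arrays with the same number correlated from -0.338 to 0.412 between time points (0.0044 to 0.412 for replicate 3), so the numbers were not taken as a pairing. Of 88 called values of listed genes, 68 to 87 stayed called under the scalings, the other pairing and arrays as replicates, 319 of 352 with 1 array out and 98 of 161 with 1 experiment out; GPX1 at 40 min, TRX1 and PIP2 at 60 min were among those lost. The number of arrays limits the precision.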

Other observations

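On the chromosome, in the RefSeq R64 gene order, GTT2 lies between MMP1, an S-methylmethionine permease, and HSU1. MMP1 stood at a mean log2 ratio of 2.73 at 60 min and 3.30 at 120 min, and HSU1 at 1.87 and 1.75, all called higher in limma, so both neighbours of the unmeasured gene rose. SOD1 lies between URA8, a CTP synthase, which was called higher at 60 min at 1.37, and ADO1, adenosine kinase, which was called lower at -0.91 at 60 min and -1.48 at 120 min. GLR1 lies beside RPS6A, a ribosomal protein gene called lower at -1.92 and -2.66, and SSU1, a sulfite transporter called higher at 120 min at 0.79, while GLR1 itself was at 0.47 and 0.15 and not called. CCP1 lies between PAM17, lower at -0.52 and -0.55, and GPT2, higher at 0.85 and 0.81. Of the 18 genes on either side of the 9, 9 of 12 tested at 60 min were called and 8 of 13 at 120 min, beside 46.8% and 42.3% of all genes tested. GAL11 and GIS4 were called at neither time. These neighbours were named after their values were seen.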
